A study of Arabidopsis thaliana with 4 samples.

Results

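The heat-inducible class A heat shock factor genes HSFA2 (AT2G26150), HSFA3 (AT5G03720), HSFA6A (AT5G43840), HSFA6B (AT3G22830), HSFA7A (AT3G51910), HSFA7B (AT3G63350) and HSFA9 (AT5G54070) were followed in heated Arabidopsis thaliana seedlings that lacked the class B factors HSFB1 and HSFB2B. They were taken by locus name, under a rule that used no measured value, although earlier results of these data were known. They comprised 7 of the 25665 loci named on the array, each read by 1 probe. Double mutant seedlings (hsfb1 hsfb2b) and wild-type seedlings, both of the Columbia-0 ecotype, were 5 d old. They had been raised at 23 °C on Gamborg B5 agar with sucrose, in 16 h of light and 8 h of dark. Both genotypes received the same heat, 30 min at 32 °C with the plate under water, so heat is shared by every sample. Whole seedlings were used, many plants of both genotypes shared a plate, and each of the 4 two-colour arrays carried RNA of both genotypes from 1 biological replicate. The mutant was labelled with Cy3 (green) in replicates 1 and 3 and with Cy5 (red) in replicates 2 and 4. The sources used here do not state how the mutant alleles were made.

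Heat shock factors bind heat shock elements in promoters. Class A factors carry activation motifs and switch on chaperone genes, while most class B factors lack these motifs and act as repressors. In Arabidopsis the constitutive HSFA1 factors start the heat response, and the genes of several other class A factors are among those they switch on. Those induced factors then prolong or extend the response. HSFA2 sustains acquired thermotolerance, HSFA3 acts downstream of DREB2A, HSFA6A and HSFA6B are linked to abscisic acid signalling, HSFA7A and HSFA7B are rapidly heat-induced, and HSFA9 works in maturing seeds. The comparison asks whether the genes of these activators differ in level when HSFB1 and HSFB2B are lost. No comparison with unheated seedlings was made, and the heat induction in the group's name was not tested.

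The mutated genes checked the labels. The log2 ratio of mutant over wild type lay between -5.84 and -5.72 for HSFB1 and between -5.12 and -4.38 for HSFB2B on the 4 arrays. In every channel 58.7% to 60.9% of the 37685 spots that were not controls rose well above background, with 0 spots marked as saturated. Precision is limited by having 4 arrays. Pairs of arrays with like dye orientation had a correlation of 0.80 over genes, and pairs with opposite orientation 0.35 to 0.49. Genes are not independent replicates, so these values describe the arrays only. In whole seedlings, fewer cells that express a gene and less RNA per cell cannot be told apart.

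Of the 7 genes, 2 were higher in the double mutant (HSFA7B and HSFA6B), 1 was slightly lower (HSFA2) and 4 did not pass the test. The test was limma's moderated test with a dye effect per gene, adjusted by Benjamini-Hochberg over the 19314 genes tested, two-sided at 0.05. All 7 passed the brightness filter. The share called, 42.9%, stands beside 29.8% of all genes tested. By direction the background was 16.6% for higher and 13.1% for lower. Higher genes made up 55.8% of all called, 80.0% in the deposited series values without centring and 45.5% with median centring of the arrays. The 7 genes are few, and the count alone is not a result about the family. The median log2 ratio of the 7 was 0.06, against 0.00 over all genes tested. Ratios kept 1 sign on all 4 arrays for 3 of the 7 genes (HSFA3, HSFA6B and HSFA7B, all higher), beside 35.3% of the 18644 genes with ratios on 4 arrays (19% above 0 on all 4 and 16.3% below). The signal ranges of the genotypes overlapped for each of the 7 genes, while they lay apart for 10.6% of those 18644.

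**Figure D1:**
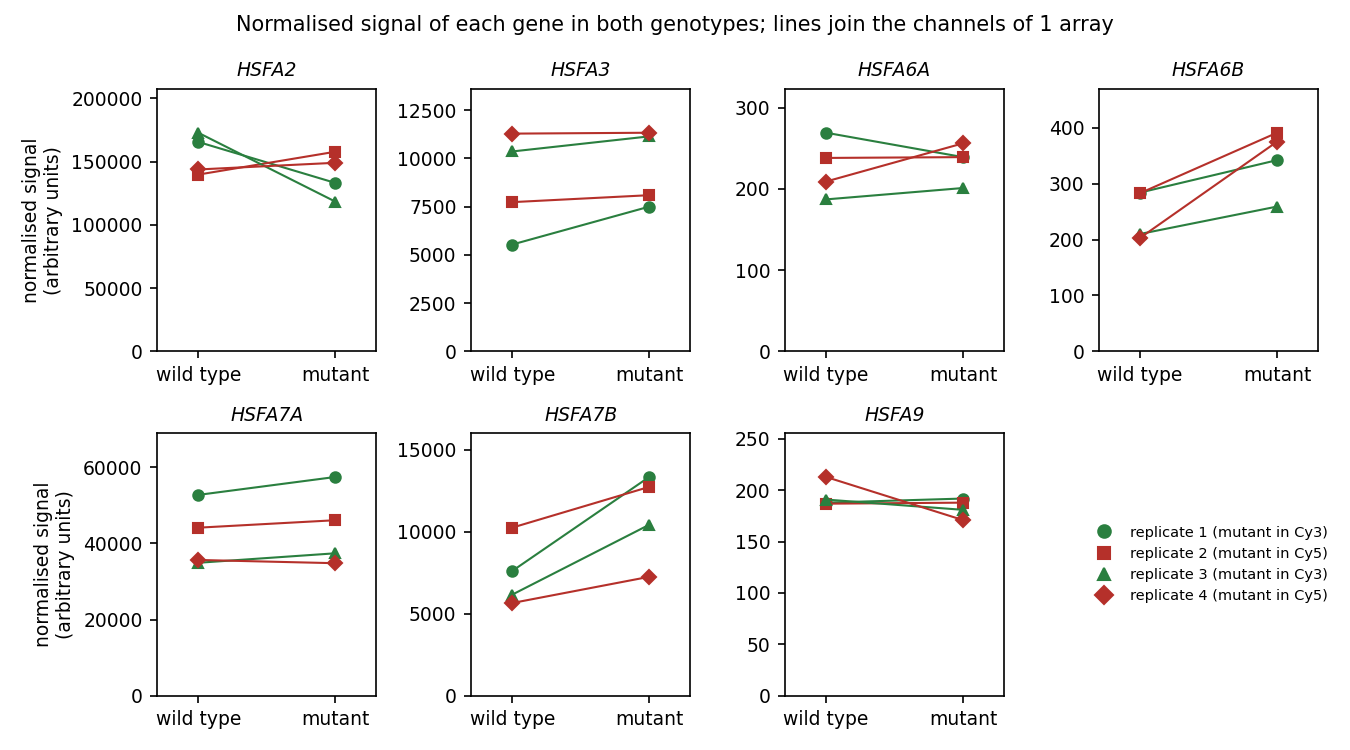
Normalised signal in arbitrary units (linear axes from 0, a scale of its own for each gene) of the 7 genes in wild type and mutant, with a line joining the 2 channels of each array and colour marking the dye of the mutant. All 4 lines rise for HSFA7B and HSFA6B, while for HSFA2 the 2 arrays with the mutant in Cy3 fall and the other 2 rise.

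HSFA7B gave the difference with the smallest p of the 7. Normalised signal is the brightness of a channel after background correction, an offset of 50 units, and scaling within and between arrays, and it can be compared between genotypes for 1 gene but not between genes. The HSFA7B signal in the double mutant was 13347, 12742, 10430 and 7254 units in replicates 1 to 4, against 7609, 10255, 6166 and 5654 in the wild type of the same arrays. The mutant was the higher channel on every array, although the pooled ranges of the genotypes overlapped because replicates differed in level. Mean signals were 10943 ± 2762 units in the mutant and 7421 ± 2063 in the wild type (SD, n = 4). Its log2 ratios were 0.81 and 0.76 on the Cy3 arrays of the mutant and 0.31 and 0.36 on the Cy5 arrays. Both orientations thus put HSFA7B higher in the mutant, by a larger margin in Cy3. The fitted log2 ratio was 0.56 ± 0.03 (SE, n = 4 arrays), or 1.47-fold, with a 95% interval of 1.40 to 1.55-fold and a limma adjusted p of 7.7e-05. This SE and interval hold after the dye effect is fitted. They do not measure the spread of the single arrays, whose log2 ratios had an SD of 0.26. HSFA7B ranked 209 among the 19314 genes when ordered from the highest ratio.

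HSFA7A, which shares its subclass with HSFA7B, did not pass the test. Its normalised signals were 57467, 46104, 37412 and 34810 units in the mutant and 52756, 44144, 34922 and 35663 in the wild type. The replicates differed from each other more than the genotypes did, and in both genotypes replicate 1 was the brightest. On the log2 scale its ratios were 0.12, 0.06, 0.10 and -0.03 in replicates 1 to 4. The fitted ratio was 0.06 ± 0.03 (SE, n = 4 arrays, limma adjusted p = 0.20), with a 95% interval of -0.02 to 0.14. In the deposited series values without centring HSFA7A stood at 0.19 and passed the test (limma adjusted p = 0.038). With median centring of the arrays it stood at -0.08 and did not pass.

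The ratio of HSFA7B exceeded that of HSFA7A on all 4 arrays, by 0.69, 0.25, 0.66 and 0.39 on the log2 scale in replicates 1 to 4. The mean difference was 0.50 ± 0.21 (SD, n = 4 arrays). An exact two-sided permutation test that flips the sign of whole arrays gave p = 0.125 (0.125 after adjustment over the 2 pairs compared), the smallest value that 4 arrays allow. The difference was thus in 1 direction throughout, in a test that could not reach 0.05. The probe sequences were not used here, so how far each probe separates the 2 related transcripts was not tested.

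**Figure D2:**
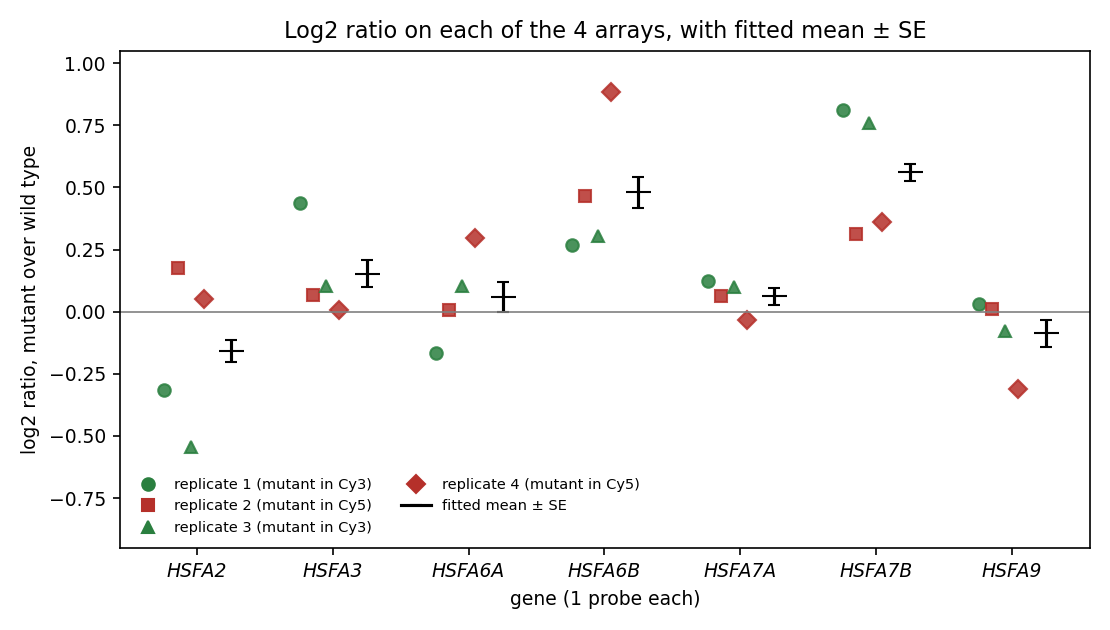
Log2 ratio of mutant over wild type for each gene on each array, with the fitted mean and SE in black. Points are coloured by the dye of the mutant. HSFA7B lies between 0.31 and 0.81 and HSFA6B between 0.27 and 0.88, whereas the HSFA2 arrays run from -0.55 to 0.18 and split by dye.

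HSFA6B, a factor tied to abscisic acid responses, was the other gene that was higher. Its normalised signals were 342, 391, 259 and 375 units in the mutant and 284, 283, 210 and 203 in the wild type of replicates 1 to 4. The mutant exceeded the wild type on each array, and the pooled ranges overlapped. Mean signals were 342 ± 58.7 units in the mutant and 245 ± 44.4 in the wild type (SD, n = 4). The 4 log2 ratios were 0.27, 0.46, 0.30 and 0.88, and the fitted ratio was 0.48 ± 0.06 (SE, n = 4 arrays), or 1.39-fold (limma adjusted p = 0.0017).

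The size of the HSFA6B difference depended on how dim spots were treated, while its call did not. Raw spot signals were 118 to 378 units, 2.59 to 6.80 times the local background, and were well above background in every channel. The offset of 50 units added after background correction draws such a ratio towards 0. With no offset the log2 ratio was 0.61, and without background correction it was 0.69. In the processed signals of the scanner software it was 1.16, with single arrays at 0.82, 1.14, 1.00 and 1.68, and in the deposited series values 1.24. HSFA6B passed the test in all 16 alternatives (limma adjusted p from 3.2e-08 to 0.035).

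HSFA6A, of the same subclass as HSFA6B, was also dim and did not pass. Its normalised signals ran from 201 to 256 units in the mutant and from 187 to 269 in the wild type. Replicates 1 to 4 had log2 ratios of -0.17, 0.01, 0.10 and 0.30, and the fitted ratio was 0.06 ± 0.06 (SE, n = 4 arrays, limma adjusted p = 0.48). Replicate 1 thus went against the other 3. The 95% interval of the log2 ratio, -0.08 to 0.20, holds for signals with the offset, and in the processed signals the log2 ratio turned to -0.15. The HSFA6B ratio was above that of HSFA6A on all 4 arrays, by 0.42 ± 0.16 on average (SD, n = 4 arrays, exact two-sided permutation p = 0.125, again the smallest possible). In the processed signals the HSFA6B minus HSFA6A difference of log2 ratios was 1.31.

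Tissue markers were read on the same arrays. Of 6 root markers, 4 were higher and 2 did not pass (median 0.41), beside 16.6% higher and 13.1% lower over all genes tested. CASP1, an endodermis gene, stood at 0.48 and EXPA7, a root hair gene, at 0.52. COBL9 and EXPA18 were also higher, at 0.48 and 0.35. The 2 that did not pass were SCR at -0.055 and PLT1 at -0.02. In each of the 16 alternatives 4 of the 6 root markers were higher. Their summed signal was higher in the mutant on all 4 arrays, at 7503 to 9594 units against 6375 to 7664 in the wild type. Of 5 green shoot markers, 1 was higher, 3 were lower and 1 did not pass, and the alternatives gave 0 to 1 higher and 0 to 4 lower. The 3 lower markers split by dye. LHCB1.1, LHCA3 and RCA had means of -1.12, -0.83 and -0.56 over the Cy3 arrays and 0.58, 0.36 and 0.26 over the Cy5 arrays. LHCB2.1, the higher marker, had 0.60 over the Cy3 arrays and -0.04 over the Cy5 arrays. The summed signal of the 5 shoot markers was 571749 to 824417 units in the mutant and 633098 to 953047 in the wild type. It was higher in the mutant on 2 arrays. No root or shoot marker lacked signal. In the fit reported here HSFA7B stood at 0.56 and HSFA6B at 0.48, beside 0.52 for EXPA7, the highest root marker. In the deposited series values HSFA7B stood at 0.63 and HSFA6B at 1.24, beside 0.73 for EXPA18, the highest root marker there. The part that tissue proportions had in the HSFA7B and HSFA6B ratios was not tested.

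HSFA2, the activator that maintains chaperone expression after heat, was the only one of the 7 called lower. Its normalised signals were 133247, 157862, 118475 and 149130 units in the mutant and 165625, 139800, 172898 and 143851 in the wild type. The mutant was lower in replicates 1 and 3 and higher in replicates 2 and 4, which are the orientations of the dyes. In log2 terms the Cy3 arrays of the mutant gave -0.31 and -0.55, and its Cy5 arrays 0.18 and 0.05. The fitted ratio was -0.16 ± 0.05 (SE, n = 4 arrays, 1.12-fold lower, limma adjusted p = 0.038).

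This call was the least stable of the 3. It was lost in 7 of 16 alternatives, among them the processed signals (-0.10), the deposited series values (-0.02), the fit without a dye effect, and the fits without replicate 3 (-0.10) or replicate 4 (-0.13). The log2 ratio stayed below 0 in all 16, from -0.32 to -0.02. The HSFA2 spots were 1160 to 4360 times the local background, and none was marked as saturated.

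HSFA3, whose gene is activated by DREB2A, had a ratio above 0 on all 4 arrays without passing the test. Its normalised signals ran from 7500 to 11330 units in the mutant and from 5537 to 11284 in the wild type. Array log2 ratios were 0.44, 0.07, 0.10 and 0.01, so that replicate 1 had by far the highest ratio. The fitted ratio was 0.15 ± 0.05 (SE, n = 4 arrays, limma adjusted p = 0.068). It passed without replicate 3 (0.24, limma adjusted p = 0.023) and without replicate 4 (0.17, limma adjusted p = 0.040), and stood at 0.07 without replicate 1.

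HSFA9, the seed factor, was barely detected. Raw signals were 79 to 110 units, 1.70 to 2.26 times the local background, and were well above background in 4 wild-type and 3 mutant channels. Normalised signals were 171 to 192 units in the mutant and 187 to 213 in the wild type. Its 4 log2 ratios were 0.03, 0.01, -0.08 and -0.31, with a fitted ratio of -0.09 ± 0.05 (SE, n = 4 arrays, limma adjusted p = 0.26). Without replicate 2 HSFA9 passed as lower (-0.17, limma adjusted p = 0.010), and in the processed signals it stood at -0.57 without passing. It met the brightness filter through the wild type alone, which favours a call of lower, so the call without replicate 2 carries no weight. At this signal the size of a difference, or its absence, could not be determined.

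The dye effect, fitted for each gene beside the genotype, passed the test for 2 of 7 (18.1% of all genes), HSFA2 with red over green at 0.27 ± 0.05 and HSFA7B with -0.22 ± 0.03 (limma adjusted p = 0.013 and 0.0096). Without that term the HSFA7B and HSFA6B calls held (limma adjusted p = 0.017 and 0.035), and the HSFA2 call did not (limma adjusted p = 0.46).

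The rest of the heat shock factor family had log2 ratios between -0.08 and 0.16. Of 12 other measured heat shock factor genes, leaving out HSFB1 and HSFB2B, 1 was higher and 11 did not pass, with a median log2 ratio of 0.01. These counts stand beside 16.6% higher and 13.1% lower over all genes tested, and they are not a result about the family. The gene that was higher was HSFA8 (0.16 ± 0.03, limma adjusted p = 0.011), a call lost in 5 of 16 alternatives, with ratios from 0.09 to 0.23. The master activators HSFA1A, HSFA1B, HSFA1D and HSFA1E had ratios of 0.07, 0.01, -0.02 and 0.04, and none passed. HSFA4A, HSFA4C and HSFA5 stood at -0.04, 0.09 and -0.01. The remaining class B repressor genes HSFB2A, HSFB3 and HSFB4 had 0.00, 0.05 and -0.08, and HSFC1 had -0.06. HSFA7B and HSFA6B thus had larger ratios than any of these 12 genes.

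**Figure D3:**
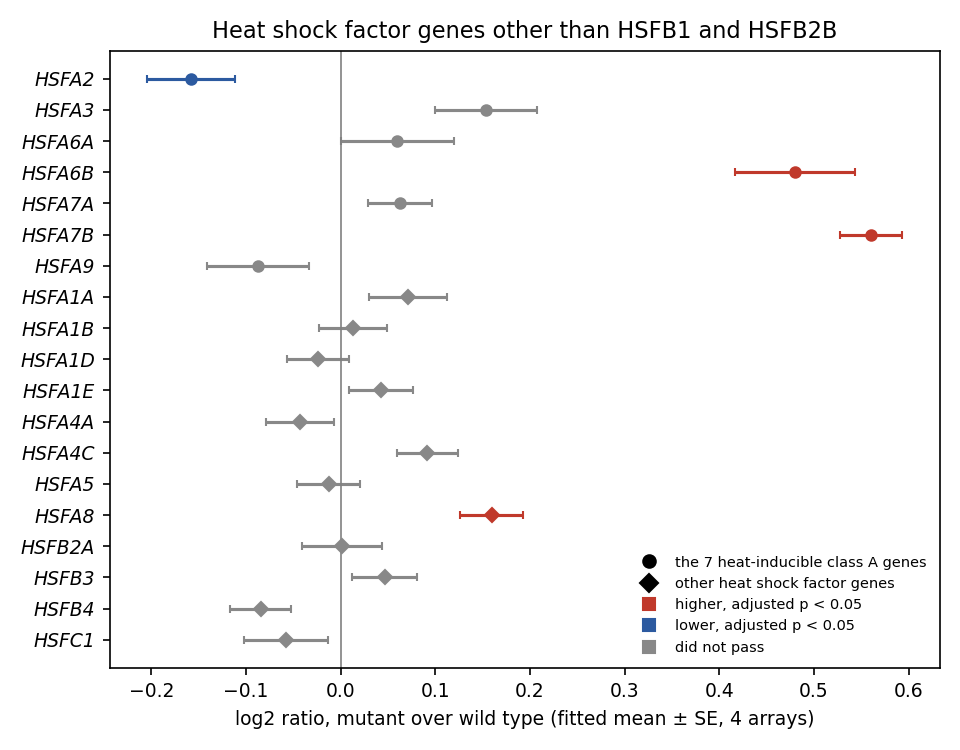
Fitted log2 ratio of mutant over wild type with its SE (4 arrays) for the 7 heat-inducible class A genes (circles) and the 12 other heat shock factor genes (diamonds), coloured by call. HSFA7B at 0.56 and HSFA6B at 0.48 stand to the right, and the other genes lie between -0.16 and 0.16.

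Genes that regulate or partner class A factors were lower or did not pass. Of 11 listed genes 10 were tested, with 0 higher, 6 lower and 4 not past the threshold, and their median log2 ratio was -0.27. The shares over all genes tested were 16.6% higher and 13.1% lower. DREB2A, the activator of HSFA3, had a log2 ratio of -0.60 ± 0.05 (SE, n = 3 arrays, 1.52-fold lower, with a limma adjusted p of 0.00056). Its single arrays were -0.44, -0.85 and -0.67 in replicates 1, 2 and 4, all below 0, with the spot of replicate 3 left out as an outlier. DREB2A was thus lower in the mutant, and HSFA3, which it activates, did not pass the test. HSFA3 ratios were above 0 on all 4 arrays, and a link between the 2 genes was not tested.

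HSP90.1, a chaperone that holds heat shock factors in check, had a log2 ratio of -0.62 ± 0.04 (SE, n = 3 arrays, 1.54-fold lower, with a limma adjusted p of 0.00029) and did not pass in the series values, centred or not, where the ratio closest to 0 was -0.32. MBF1C, a heat-induced coactivator, had a log2 ratio of -0.54 ± 0.05 (SE, n = 4 arrays, 1.46-fold lower, with a limma adjusted p of 0.00028). MBF1C split by dye as HSFA2 did, with a mean of -1.08 over the Cy3 arrays and 0.00 over the Cy5 arrays, and did not pass without the dye effect. Also lower were ROF2 (-0.41), DREB2B (-0.27) and ROF1 (-0.26). ROF1 did not pass in the uncentred series values (-0.16) or without replicate 3, and over the 16 alternatives 4 to 6 genes of the list were lower. ROF1 and ROF2 are peptidyl-prolyl isomerases that act on HSFA2. HSBP, which binds heat shock factors and dampens them, had 0.04 and did not pass, and HSC70-1 was not tested, since 2 of its ratios were left after outlier marks.

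Known target genes of HSFA2, many of which other class A factors also activate, were mostly lower. Of 14 listed genes 12 were tested, with 10 lower, 1 higher and 1 not past the threshold, and a median log2 ratio of -0.66. Over all genes tested 13.1% were lower and 16.6% higher. The list was drawn up with earlier results of these data known, so its count is a description and not a test. HSP70B, a cytosolic chaperone gene, had a log2 ratio of -1.03 ± 0.04 (SE, n = 4 arrays, 2.05-fold lower, with a limma adjusted p of 2.8e-05). The small heat shock protein genes HSP17.6C-CI and HSP21 were 1.77-fold and 1.76-fold lower (limma adjusted p = 0.00021 and 9.3e-05). The galactinol synthase genes GOLS2 and GOLS1 had ratios of -0.68 and -0.64, and HSA32, which prolongs acquired thermotolerance, had -0.64. APX2, an ascorbate peroxidase gene often used as a readout of HSFA2, was the gene that was higher (0.41 ± 0.04, limma adjusted p = 0.00040), with arrays between 0.29 and 0.60. Over the 16 alternatives between 9 and 12 genes of the list were lower and 1 was higher. The HSFA2 ratio itself, at -0.16, was smaller than that of every target gene that passed.

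**Figure D4:**
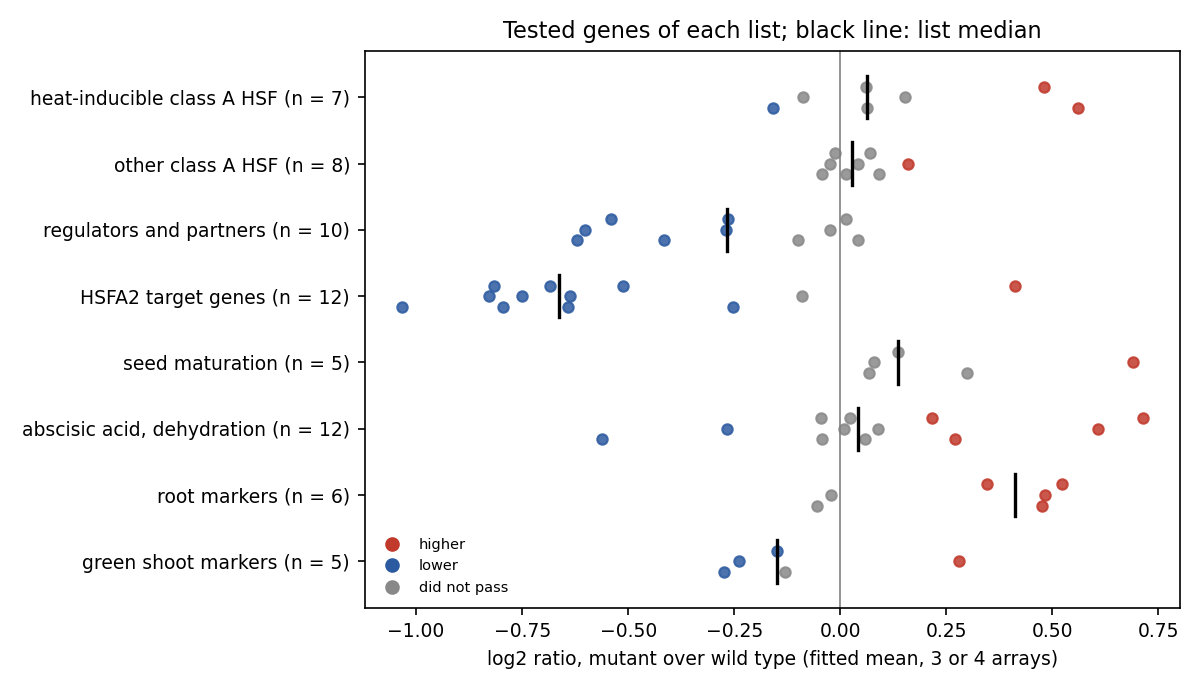
Fitted log2 ratio of each tested gene (points, coloured by call) in the lists of heat-inducible class A genes, other class A genes, regulators, targets and markers, with list medians as black lines. The medians of the HSFA2 target genes (-0.66) and of the regulators (-0.27) lie below 0, and that of the 7 heat-inducible class A genes is 0.06.

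Genes of abscisic acid signalling and dehydration, the setting in which HSFA6A and HSFA6B are known, went both ways. Of 13 listed genes 12 were tested, 4 higher, 2 lower and 6 not past the threshold, with a median of 0.04. Over all genes tested 16.6% were higher and 13.1% lower. RD29A and LTI30, dehydration-induced genes, were higher at 0.71 ± 0.04 and 0.61 ± 0.04 (SE, n = 4 arrays, limma adjusted p = 9.4e-05 and 0.00011), and RD29B had 0.27. RD29B stood at 0.63 in the deposited series values and did not pass in the processed signals. ABI2, the other gene that was higher, had 0.22 (limma adjusted p = 0.008), a call lost in 2 of 16 alternatives. COR15A and RAB18 were lower at -0.56 and -0.27. The transcription factor genes ABF2, ABF3 and ABF4 and the abscisic acid synthesis gene NCED3 did not pass, at -0.04, 0.02, -0.04 and 0.09.

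Seed maturation genes, the setting of HSFA9, were largely at the limit of detection. Of 9 listed genes 5 were tested, and FUS3 and CRU3 were above background on no array of either genotype. EM6, a late embryogenesis gene, had a log2 ratio of 0.69 ± 0.11 (SE, n = 4 arrays, 1.61-fold higher, with a limma adjusted p of 0.0042), and up to 1.04 in the deposited series values. ABI3, the activator upstream of HSFA9, had 0.07 and did not pass. ABI3 and OLEO1 met the brightness filter through the mutant alone, which favours a call of higher. Each had 4 mutant and 2 wild-type channels well above background. In the deposited series values ABI3 stood at 0.72 without passing, and it passed once these were centred. Over the 16 alternatives 1 to 3 genes of the list were higher, and its median log2 ratio, 0.14, ran from 0.07 to 0.72. The highest of these medians was the ABI3 value itself, and OLEO1 passed without background correction. EM1 and CRA1, well above background in 4 mutant and 4 wild-type channels, also moved the count. In the reported fit EM1 stood at 0.30 and CRA1 at 0.14 without passing, and they passed in 4 and 2 of the 16 alternatives. With ABI3 and OLEO1 among the genes counted, the range of this count and of this median still carries no weight.

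Among the 18644 genes with ratios on 4 arrays, the nearest to HSFA7B by Euclidean distance over the 4 log2 ratios were XTH24, GRP7 and AT1G32920, at distances of 0.11, 0.13 and 0.15. They had ratios of 0.52, 0.60 and 0.55. The nearest to HSFA6B were WRKY24, RRTF1 and MYB112, at 0.09, 0.12 and 0.12, with ratios of 0.44, 0.46 and 0.43. This likeness was measured with the offset of 50. In the deposited series values WRKY24 had 1.08, RRTF1 2.36 and MYB112 0.84, against 1.24 for HSFA6B, so RRTF1 in particular no longer lay near it. For HSFA2 they were AT1G55000, AT5G09225 and AT1G73650, at 0.14, 0.14 and 0.15, each of which was also split by dye. The nearest to HSFA3 were AT5G18920, COR47 and SOT18 (0.08 to 0.12), and to HSFA6A they were OSM34, DIN2 and ABCG32 (0.05 to 0.10). HSFA7A was nearest to MAP65-1, HMG1 and POK1, all at 0.02. WAK1, AT2G24650 and AT1G63400 were nearest to HSFA9 (0.02 to 0.05). Likeness over 4 arrays includes shared dye effects and describes these arrays alone.

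**Figure D5:**
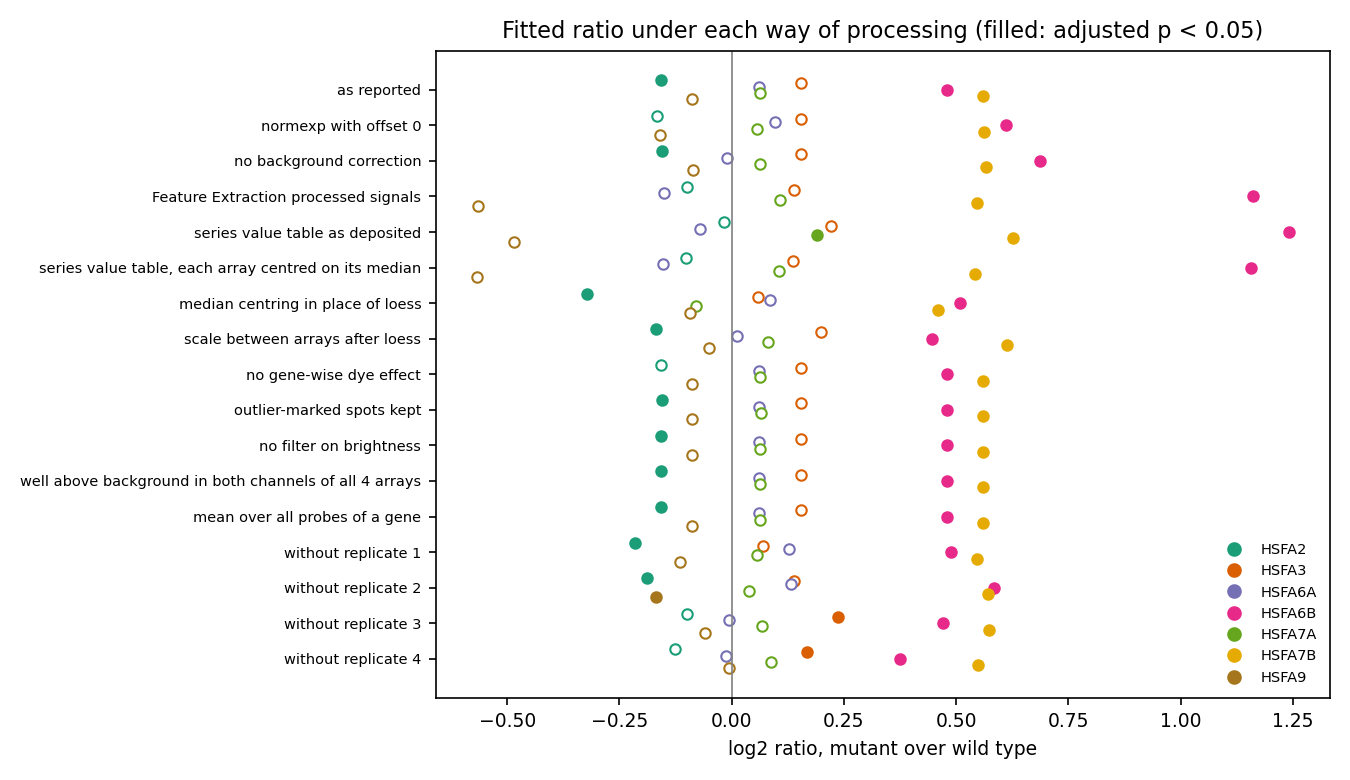
Fitted log2 ratio (horizontal axis) of the 7 genes under each way of processing (rows), filled where the adjusted p is under 0.05. HSFA7B stays between 0.46 and 0.63 and HSFA6B between 0.38 and 1.24, both filled in every row, while HSFA2 lies between -0.32 and -0.02 and loses its fill in 7 rows.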

How the data were processed

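Spots were quantified by the scanner software (Feature Extraction 9.1.3.1), as the file headers and the submitters' processing notes state. Spot and background values are intensity values deposited without normalization (median pixel brightness), and the processed signals are, per the file headers, intensity values from which that software had subtracted background and which it had dye-normalized. The deposited log10 ratio is red over green, and the deposited p-value per spot was not used. The deposited series values matched a natural log ratio (mutant over wild type), with slopes of 0.999 to 1 in size against the scanner ratios and signs that followed the dye of the mutant. Whether they were centred is unknown (column medians 0.0458, 0.0813, 0.107 and -0.0011 in replicates 1 to 4).

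Background was corrected by normexp with an offset of 50, and loess within each array gave weight 0 to control spots and to spots marked as outliers. Outlier-marked spots (190 to 399 per array) were left out. Genes needed a probe well above background in all 4 mutant or all 4 wild-type channels and at least 3 ratios, and the brightest probe was used. Log2 ratios were fitted in limma 3.58.1 under R 4.3.3. The model held a dye effect per gene and the genotype, and errors are standard errors of that fit. Those errors leave out the difference between dye orientations and do not measure the spread of single arrays. Normalised signals are the channels after loess and Aquantile scaling. They include the offset and are not compared between probes. All 7 heat shock factor genes, and 19217 of the 19314 tested loci, matched the RefSeq table of TAIR10.1, used for symbols only. All arrays came from 1 slide and 1 scan, which leaves no batch to test. The fit was tested on simulated data.

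The genes and lists were chosen with earlier results of these data known. Named are the 7 genes, every other heat shock factor gene, up to 3 genes per direction of each list with the largest ratios past the threshold, and the 3 genes nearest to each of the 7. Other list genes named were chosen after their values were seen.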

Additional observations from a re-analysis of the deposited data

Results flagged for a closer look

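One gene of the lists stood out by replicate among the 88 with ratios on 4 arrays that were examined. ABF3 had log2 ratios of 0.11, 0.09 and 0.09 in replicates 1 to 3 and -0.20 in replicate 4, a gap of 0.925 of its whole range; this is above Dixon's 95% limit for 4 values. Chance alone marks about 1 in 20 such groups. None of the 7 heat shock factor genes had such an array.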

How the results depend on the processing

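HSFA7B (0.46 to 0.63) and HSFA6B (0.38 to 1.24) stayed higher and past the threshold in all 16 alternatives. HSFA2 lost its call, leaving 0 of the 7 genes lower, with a normexp offset of 0 (-0.17), in the processed signals (-0.0985), in the deposited series values uncentred (-0.0173) and centred (-0.10), and without the dye effect (-0.16). Leaving out 1 replicate gave -0.22 to -0.10 for HSFA2, 0.0703 to 0.24 for HSFA3, -0.17 to -0.0062 for HSFA9 and 0 to 2 of the 7 genes lower. HSFA7A passed in the uncentred series values (0.19). HSFA6A changed sign among alternatives (-0.15 to 0.13) and never passed.

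The number of genes differing, 5747 (3208 higher and 2539 lower), was 3589 (2078 and 1511) in the series values after centring, 2547 (1159 and 1388) when arrays were median-centred in place of loess, and 1826 (1242 and 584) without the dye effect. In the uncentred series values 1186 were lower. Leaving out 1 replicate gave 2254 to 5893 genes, 1478 to 3254 higher and 776 to 2639 lower, with 3333 without replicate 1 and 2254 without replicate 3. Higher genes were 55.8% of those called, 80.0% in the uncentred series values and 45.5% with median centring. The causes were not tested. Each ratio is paired within its array, so a further replicate block could not be added. Dim spots limit the ratios of HSFA6A, HSFA6B and HSFA9.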
